A study of Mus musculus with 24 samples.

Results

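Kupffer cells (KCs), the macrophages that line the liver sinusoids, were compared with microglia (MG) of the brain, peritoneal macrophages (PMs) and alveolar macrophages (AMs) of the lung, all sorted directly from mice and sequenced as bulk RNA. Of the 24 libraries of the series, the 12 from freshly sorted cells were used, 3 for each of the 4 populations, and the 12 from cultured cells entered a single alternative model. All 12 came from untreated female C57BL/6J mice, aged between 8 and 12 weeks according to the labels, with no transgene or treatment in any group. KCs were sorted by CD45, CD11b, F4/80 and TIM-4, all positive, from liver suspensions cleared on a density gradient, MG as CD45-low CD11b+ cells, PMs by CD45, CD11b, F4/80 and CD115, and AMs by CD45, low CD11b and Siglec-F. Liver and lung were digested with enzymes, the brain was homogenised mechanically and the peritoneal cavity was rinsed, so that tissue and way of isolation cannot be told apart. The TIM-4 gate selects embryonically seeded KCs, and Timd4, Adgre1, Itgam, Ptprc, Csf1r and Siglecf, which encode the sorting antigens, are therefore not findings.

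KCs sit inside the blood vessels of the liver, where they take up bacteria, aged red cells, immune complexes and modified lipoproteins, recycle iron from haemoglobin and regulate complement. Their identity is known to depend on signals from endothelium, stellate cells and hepatocytes, among them Notch ligands, bone morphogenetic proteins and ligands of the liver X receptor, which act through the transcription factors LXR-alpha (encoded by Nr1h3), ID3 and SPI-C. Clec4f, C6 and Cd5l were the markers used here to check the labelled cell type.

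Each value is given as CPM (counts per 1e6 reads, scaled by the TMM factors of edgeR), in the order of replicates 1, 2 and 3 of a population. A gene was called higher or lower when the Benjamini-Hochberg adjusted p of edgeR's quasi-likelihood test was under 0.05 and the log2 fold change exceeded 1.5 in size. A gene was called against every other tissue when it was called in the same direction against MG, against PMs and against AMs. These 3 comparisons share the same 3 KC libraries, so their overlap is a count and not a repeated finding. The labels do not say whether replicates came from separate animals, and p-values measure only the spread between these libraries, which may be technical. In bulk samples, fewer cells of a type and less RNA per cell cannot be told apart.

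The libraries held 29569486 to 40277178 counted reads. The KC libraries were more unlike each other than those of the other populations: pairs of KC libraries correlated at 0.883 to 0.931 (Pearson's r across genes on the log2 CPM scale), against 0.969 to 0.988 within MG, PMs and AMs. The biological coefficient of variation was 0.745 in KCs and 0.138 to 0.291 in the other populations. KC replicate 1 exceeded 3 times both other KC libraries at 1400 of the 15732 genes tested (8.9%), and values that rest on it are given below with and without it.

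KCs were higher than every other tissue at 546 genes (3.47% of those tested) and lower at 142 genes (0.903%). Against single populations, 2286 genes were higher than in MG (14.5%), 1785 higher than in PMs (11.3%) and 2637 higher than in AMs (16.8%). By this test fewer were lower: 1476 against MG (9.38%), 1142 against PMs (7.26%) and 1231 against AMs (7.82%). Against the mean of the 3 populations, 2291 genes were higher (14.6%) and 551 lower (3.5%). The excess of higher calls against MG depended on the test: limma-voom, with the same thresholds, called 2064 genes higher and 2074 lower than in MG, 1719 higher and 1508 lower than in PMs, and 2359 higher and 1534 lower than in AMs. The median log2 fold change over all genes tested, which the scaling of the libraries holds near 0, was 0.07 against MG, 0.07 against PMs and 0.09 against AMs. Of the 546 genes, 474 were protein coding, and 526 had all 3 KC libraries above all 9 others, where 8.08% of all genes tested did. For 72 of the 546, the other 9 libraries together held at most 3 reads. The population next to KCs was PMs for 202 of the higher genes, MG for 193 and AMs for 151. Among the 546, 94 had KC replicate 1 at over 3 times both other KC libraries, and 57 of these 94 were still called without it. Without KC replicate 1, 454 of the 546 were still called. The count of lower genes was less stable: it was 222 without KC replicate 1, 232 without KC replicate 2, 56 when each pair of populations was fitted alone, and 73 when each population had its own variance.

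The 3 marker genes were present in every KC library. Clec4f, a C-type lectin receptor of KCs that binds glycans and platelets (chr6:83644542-83656187, GRCm38), stood at 9000, 15200 and 14300 CPM, and no other library exceeded 0.301 CPM. C6, a component of the membrane attack complex (chr15:4727175-4814967), stood at 612, 1410 and 1870 CPM, with a highest value of 0.716 CPM elsewhere. Neither gene had more than a trace of reads outside KCs. Cd5l, a secreted scavenger protein that is a target of the liver X receptor (chr3:87357881-87371073), stood at 3980, 7500 and 7990 CPM in KCs and at 1310, 1480 and 1380 CPM in PMs. It was below 1.5 CPM in MG and AMs. The groups did not overlap, and the KC mean was 4.67 times the PM mean (log2 fold change 2.22 ± 0.36 SE, edgeR adjusted p = 0.000671). Cd5l thus marked KCs and PMs against MG and AMs, at a higher level in KCs. The call against PMs was lost in a model of all 24 libraries (edgeR adjusted p = 0.0982, over a range of 4.92e-12 to 0.0982 in all alternatives).

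**Figure D1:**
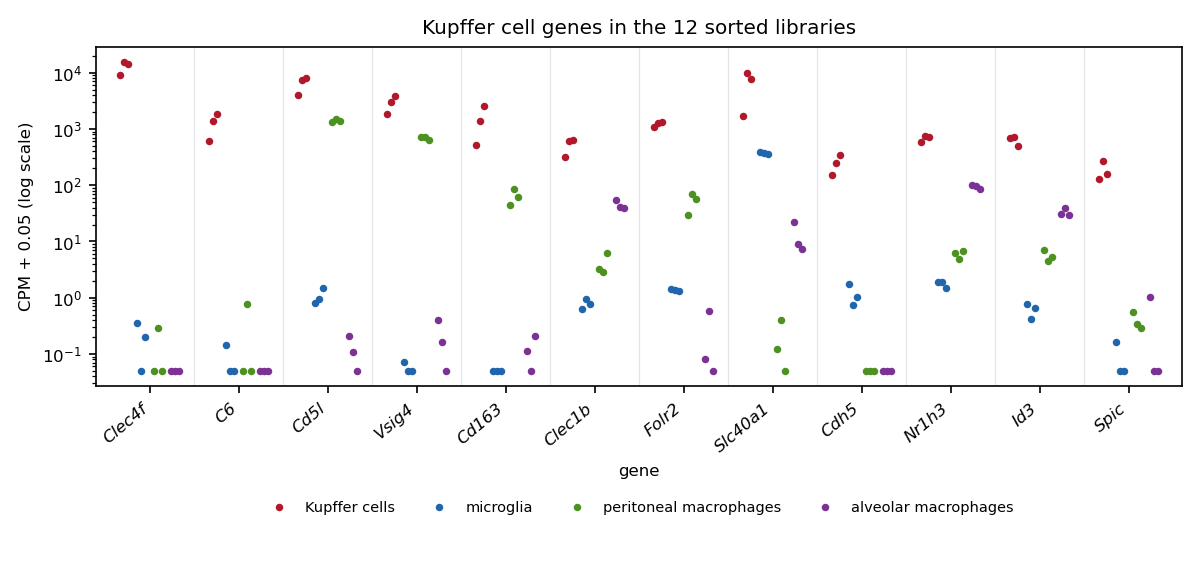
Levels of 12 Kupffer cell genes in the 12 sorted libraries, in CPM + 0.05 on a log axis. Each point is 1 library, in the order of replicates, coloured by population. The 3 KC points lie above all others for each gene, and PMs come nearest for Cd5l and Vsig4.

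Of 14 KC identity genes tested, 11 were higher than in every other tissue and none was lower (78.6% against 3.47% of all genes tested). The list was assembled from genes known to mark KCs, so a high share describes the sort. Vsig4, the complement receptor CRIg that captures opsonised bacteria, stood at 1870, 3040 and 3780 CPM in KCs and at 725, 728 and 623 CPM in PMs, a ratio of means of 4.19 (log2 fold change 2.07 ± 0.41, edgeR adjusted p = 0.00243). Vsig4 did not exceed 0.4 CPM in MG or AMs. Folr2, a folate receptor, stood at 1080, 1260 and 1340 CPM against 29.9, 70.3 and 56.4 CPM in PMs (log2 fold change 4.55 ± 0.55, edgeR adjusted p = 7.73e-05). The 3 members that were not called were Timd4, Marco and Fcna, all of which PMs also carried. Timd4, the phosphatidylserine receptor of the sorting gate, stood at 477, 1110 and 1050 CPM in KCs and at 1780, 1800 and 1310 CPM in PMs, with no read in MG or AMs. Marco, a scavenger receptor for bacteria, stood at 1680, 1300 and 2040 CPM in KCs with means of 902 CPM in PMs and 878 CPM in AMs. Fcna, a ficolin that starts the lectin pathway of complement, stood at 2670, 3500 and 3450 CPM with a PM mean of 1560 CPM. For Marco and Fcna all KC libraries lay above all others, but the fold did not reach the threshold.

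Among 16 transcription factors tied to KCs, 4 were higher than in every other tissue (25% against 3.47% of all genes tested). None was lower. Nr1h3, which encodes LXR-alpha, stood at 596, 747 and 720 CPM in KCs. It stood at 102, 97.3 and 84.3 CPM in AMs, the nearest population, and below 7 CPM in MG and PMs. The KC mean was 7.27 times the AM mean (log2 fold change 2.86 ± 0.17, edgeR adjusted p = 2.61e-07). Id3, an inhibitor of basic helix-loop-helix factors, stood at 693, 724 and 496 CPM in KCs and at 31.3, 38.5 and 28.9 CPM in AMs, a ratio of 19.4 (log2 fold change 4.28 ± 0.25, edgeR adjusted p = 2.14e-07). Spic, the heme-induced factor of red pulp macrophages and KCs, stood at 128, 268 and 156 CPM and did not exceed 0.976 CPM elsewhere. Irf7, the factor that amplifies type I interferon, is described with the interferon genes. Rbpj and Smad4, which carry Notch and BMP signals, stood in KCs at 18.7, 6.72 and 11.8 CPM and at 89.3, 70.5 and 96.5 CPM, and neither was called against every other tissue. Maf, a factor shared by many macrophages, was not called against MG: it stood at 201, 177 and 212 CPM in KCs with means of 246 CPM in MG and 0.208 CPM in AMs.

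Several tissue factors of the other populations were low or absent in KCs. Sall1, the factor of microglia, had no read in 2 of the 3 KC libraries against 716, 695 and 786 CPM in MG. Gata6, the factor of PMs, likewise had no read in 2 KC libraries, against a mean of 158 CPM in PMs. Bhlhe41 was the 1 of 11 such factors lower than in every other tissue (9.09% against 0.903% of all genes tested). It stood at 0.39, 3.85 and 0.47 CPM in KCs. Its call was lost under 6 of 23 alternatives, among them without KC replicate 3 and without any 1 of the PM libraries. Pparg, the factor of AMs, was at 25, 33.5 and 38.1 CPM in KCs against a mean of 378 CPM in AMs. All 10 MG identity genes were lower than in MG, all 10 PM identity genes lower than in PMs and 11 of 12 AM identity genes lower than in AMs. Over all genes tested these shares were 9.38%, 7.26% and 7.82%. The lists hold genes known to mark those populations, so the counts describe the sorts and are not findings about KCs.

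KCs carried a set of uptake receptors that the other populations shared only in part. Of 29 scavenger and clearance receptors tested, 9 were higher than in every other tissue and 1 was lower. These shares were 31% and 3.45%, against 3.47% and 0.903% of all genes tested. Stab2, which clears hyaluronan, stood at 224, 372 and 393 CPM in KCs and did not exceed 0.225 CPM elsewhere. It is also a marker of sinusoidal endothelium, and the part of endothelial RNA in its level was not tested. Clec1b, the podoplanin receptor CLEC-2, stood at 323, 598 and 640 CPM against 53.7, 40.8 and 39.5 CPM in AMs, a ratio of 11.6 (log2 fold change 3.54 ± 0.33, edgeR adjusted p = 7.78e-06). Clec12a, an inhibitory receptor for uric acid crystals, stood at 272, 396 and 311 CPM against 65.8, 46.9 and 46.8 CPM in AMs (log2 fold change 2.62 ± 0.35). Cxcl16, a chemokine that also binds oxidised lipoprotein, stood at 251, 317 and 291 CPM against 75.1, 86.6 and 74.1 CPM in PMs (log2 fold change 1.86 ± 0.18, edgeR adjusted p = 1.4e-05). In all 4 genes the KC libraries lay above all others. Clec4f, Cd163, Cd209f, Folr2 and Vsig4 completed the set. Msr1, Cd36 and Mrc1, other classical scavenger receptors, were not higher: Msr1 stood at 263, 575 and 532 CPM in KCs against a PM mean of 1500 CPM, Cd36 at 143, 258 and 150 CPM against 947 CPM in PMs, and Mrc1 at 304, 862 and 1310 CPM against 1140 CPM in AMs.

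The lower member was Fcgr2b, the inhibitory Fc-gamma receptor. It stood at 40.9, 6.75 and 3.98 CPM in KCs, at 323, 304 and 304 CPM in MG, at 458, 554 and 591 CPM in PMs and at 334, 310 and 293 CPM in AMs. The groups did not overlap, and the mean of MG, the nearest population, was 18 times that of KCs (log2 fold change -4.17 ± 0.70 against MG, edgeR adjusted p = 0.000603). Without KC replicate 1, the highest KC library, the smallest log2 fold change of Fcgr2b was -5.86. The activating receptors of the same family were not lower: Fcgr1 stood at 200, 279 and 267 CPM, level with MG, and Fcgr4 at 200, 292 and 389 CPM with all KC libraries above the others. Of 9 Fc receptors, 2 were higher, Fcer2a and Fcmr (22.2% against 3.47% of all genes tested). Both are known from B cells and were at no more than 14.9 CPM in KCs, and both calls were lost in the model of all 24 libraries.

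Of 32 complement genes, 6 were higher than in every other tissue (18.8% against 3.47% of all genes tested). None was lower. C2, the protease of the classical and lectin pathways, stood at 45.2, 60.7 and 88.9 CPM and did not exceed 0.748 CPM elsewhere. Cd55, which dissociates convertases on the cell surface, stood at 41.7, 74.3 and 68.5 CPM against 3.03, 5.31 and 5.58 CPM in PMs, and this call was lost in the model of all 24 libraries. C6 and Vsig4 have been given above, and Cfi and Vtn, both also made by hepatocytes, were at no more than 12.7 CPM. The C1q genes were not particular to KCs against MG and PMs: C1qa stood at 2890, 2770 and 3730 CPM in KCs, with means of 3580 CPM in MG and 4060 CPM in PMs, and did not exceed a mean of 0.227 CPM in AMs. C3 and C4b were lower than in PMs, where C4b had a mean of 7080 CPM against 435, 782 and 931 CPM in KCs.

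Heme uptake, heme breakdown and iron export were each represented among the higher genes. Of 34 iron and heme genes, 5 were higher (14.7% against 3.47% of all genes tested). Cd163, the haemoglobin-haptoglobin receptor, stood at 525, 1410 and 2510 CPM in KCs and at 44.4, 83.9 and 62.2 CPM in PMs (log2 fold change 4.54 ± 0.59, edgeR adjusted p = 0.000351), with no read in MG. Hmox1, which opens the heme ring, stood at 482, 736 and 1330 CPM in KCs, at 124, 165 and 144 CPM in PMs and at 191, 131 and 138 CPM in AMs, a ratio of 5.55 to the AM mean (log2 fold change 2.47 ± 0.32, edgeR adjusted p = 8.47e-05). Slc40a1, the iron exporter ferroportin, stood at 1700, 10000 and 7570 CPM against 388, 376 and 358 CPM in MG, a ratio of 17.2 (log2 fold change 4.1 ± 0.7, edgeR adjusted p = 0.000692). Replicate 1 was the lowest KC library for all 3 genes, and the groups did not overlap for any of them. Spic and Hpx, the hepatocyte protein hemopexin at 14.6 to 19 CPM, were the other 2. Ferritin was not higher: Fth1 stood at 4200, 3820 and 3510 CPM in KCs against means of 3470 CPM in PMs and 14100 CPM in AMs.

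Of 30 genes of LXR and lipid export, 4 were higher than in every other tissue (13.3% against 3.47% of all genes tested). They were Nr1h3, Cd5l, Apoc1 and Scd1. Apoc1, an apolipoprotein, stood at 869, 634 and 605 CPM against 223, 191 and 162 CPM in PMs (log2 fold change 1.87 ± 0.25). Scd1, a fatty acid desaturase, stood at 27.6, 68.4 and 103 CPM. The calls of Cd5l, Apoc1 and Scd1 were lost in the model of all 24 libraries. Many LXR targets were not higher: Abca1 stood at 122, 296 and 527 CPM with an MG mean of 363 CPM, and Abcg1 at 175, 155 and 250 CPM with an AM mean of 1900 CPM. Apoe stood at 17600, 21300 and 21400 CPM in KCs, above MG and AMs, whose means were 215 and 104 CPM, and below PMs with a mean of 56300 CPM. Of 21 genes of cholesterol synthesis none was higher, which is near the 3.47% of all genes tested. Of the same genes, 14 were lower than in AMs, where 7.82% of all genes tested were.

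Genes induced by interferon gave the highest count of any list: 20 of 38 were higher than in every other tissue and none was lower (52.6% against 3.47% of all genes tested). The median log2 fold change of the 38 was 3.42 against MG, 1.76 against PMs and 3.5 against AMs, beside 0.07, 0.07 and 0.09 over all genes tested. In 31 of the 38 all KC libraries lay above all others, where 8.08% of all genes tested did. Ifi27 was the 1 gene with all KC libraries below, where 3.36% of all genes tested were. Irf7 stood at 1100, 1020 and 1080 CPM in KCs, at 13.3, 13.4 and 14.1 CPM in MG, at 89.8, 97.2 and 72.2 CPM in PMs and at 8.98, 10.6 and 7.45 CPM in AMs. The groups did not overlap, and the KC mean was 12.3 times the PM mean (log2 fold change 3.62 ± 0.17, edgeR adjusted p = 8.34e-08).

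Effectors against viruses were among the called genes. Rsad2, which encodes viperin, stood at 90.6, 102 and 96.9 CPM in KCs, at 1.37, 2.12 and 2.04 CPM in MG, at 4.2, 4.03 and 4.15 CPM in PMs and at 3.29, 4.42 and 3.08 CPM in AMs, a ratio of 23.4 to PMs (log2 fold change 4.55 ± 0.22, edgeR adjusted p = 1.13e-07). Oasl1 stood at 132, 118 and 109 CPM with a highest value of 2.65 CPM elsewhere. Stat2, a part of the transcription complex that interferon activates, stood at 369, 383 and 350 CPM against 45.6, 87.3 and 67.7 CPM in AMs, a ratio of 5.49 (log2 fold change 2.46 ± 0.25, edgeR adjusted p = 1.44e-05). The Oas, Ifit and Gbp genes have close paralogs, so their counts may be shared between family members. Among those not called, Ifih1 and Irf9 lay above all other libraries by small margins, and Gbp2 and Gbp3 overlapped with PMs. Without KC replicate 1 the count was 21. Mx1, Usp18 and Cmpk2 were not called in the model of all 24 libraries.

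**Figure D2:**
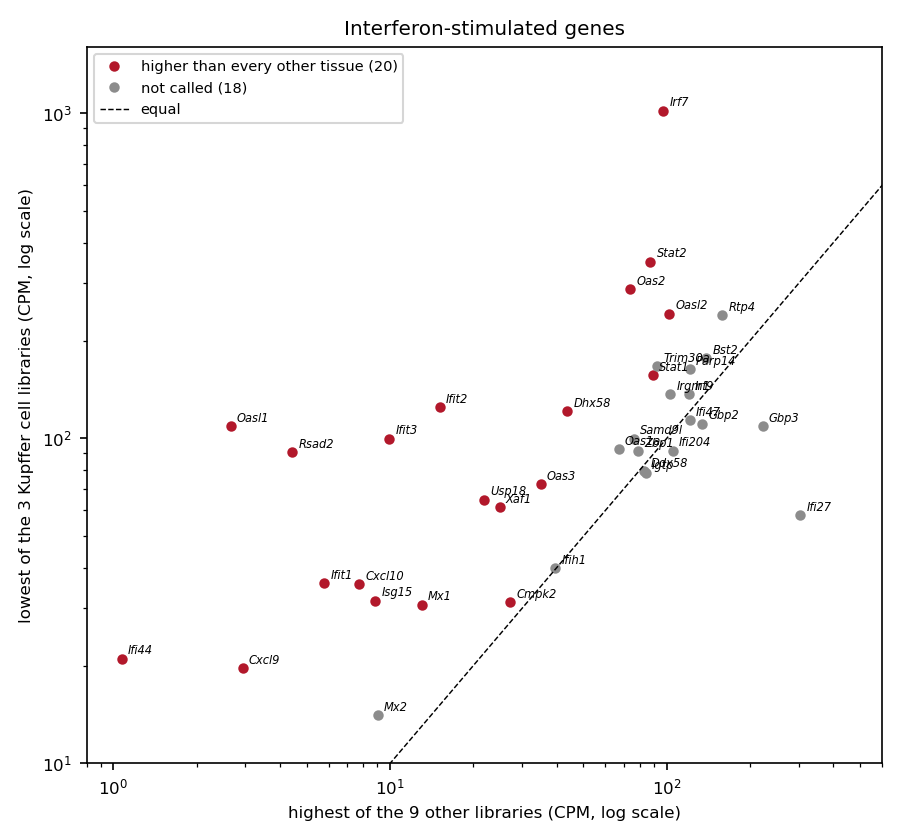
Each point is 1 of 38 interferon-stimulated genes, with the highest CPM of the 9 other libraries on the x axis and the lowest CPM of the 3 KC libraries on the y axis, both log. The 20 red genes, called against every other tissue, lie above the dashed line of equality, and Ifi27 lies farthest below it.

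Since the interferon genes moved together, their promoters are shown for 4 called members. These were chosen among the called members whose first window held the motif marked below. Cxcl10, Oas3 and Stat2, with 1 match each, also met this condition and are not shown. Every such gene with more than 1 match is among the 4. Sequences are the 250 bases before the start of a RefSeq transcript in GRCm38.p6, read 5′ to 3′ on the strand of the gene: Rsad2 at chr12:26456453-26456702, minus strand, Ifit1 at chr19:34640639-34640888, plus strand, Ifit3 at chr19:34583279-34583528, plus strand, and Isg15 at chr4:156200819-156201068, minus strand. Capitals mark the core of the interferon-stimulated response element, here 2 copies of GAAA with any 2 bases between them, searched on both strands, so that it also appears as copies of TTTC.
Rsad2: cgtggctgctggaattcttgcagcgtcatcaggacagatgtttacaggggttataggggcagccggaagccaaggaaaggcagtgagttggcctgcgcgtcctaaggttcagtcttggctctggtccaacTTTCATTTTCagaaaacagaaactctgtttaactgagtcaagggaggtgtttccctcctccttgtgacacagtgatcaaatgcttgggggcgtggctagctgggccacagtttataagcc
Ifit1: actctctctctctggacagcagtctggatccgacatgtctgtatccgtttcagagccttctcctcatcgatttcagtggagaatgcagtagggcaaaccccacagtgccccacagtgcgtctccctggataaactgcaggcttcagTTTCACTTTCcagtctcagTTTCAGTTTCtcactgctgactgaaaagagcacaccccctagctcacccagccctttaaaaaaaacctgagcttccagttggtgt
Ifit3: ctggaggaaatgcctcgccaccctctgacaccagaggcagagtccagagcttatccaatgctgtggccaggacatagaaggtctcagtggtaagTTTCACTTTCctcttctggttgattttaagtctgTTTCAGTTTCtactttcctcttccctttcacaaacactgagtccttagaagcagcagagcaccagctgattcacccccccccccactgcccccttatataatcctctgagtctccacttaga
Isg15: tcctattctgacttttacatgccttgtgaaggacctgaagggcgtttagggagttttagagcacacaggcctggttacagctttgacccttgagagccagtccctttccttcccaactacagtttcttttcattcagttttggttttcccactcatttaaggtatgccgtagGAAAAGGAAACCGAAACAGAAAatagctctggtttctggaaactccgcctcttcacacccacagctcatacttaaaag
Ifit1 and Ifit3 each held the core 2 times within the window, Rsad2 1 time, and Isg15 3 times in overlapping matches. The core was found in 2.78% of windows of all tested genes, in 7.61% of windows of the 546 higher genes (35 of 460) and in 0.909% of windows of the 142 lower genes (1 of 110). It was found in 43.8% of windows of the interferon genes that were higher (7 of 16) and in 46.7% of windows of those that were not called (7 of 15), so the presence of the core did not separate them. A match describes the letters and not a bound site. The other motifs differed less: the PU.1 core GAGGAA was in 28% of windows of higher genes, 24.5% of lower genes and 23% of all genes, and the RBPJ core GTGGGAA in 4.78%, 5.45% and 5.35%. The share of windows with the E-box CACGTG was 5.65%, 5.45% and 8.1% in the same order.

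The core MHC class II genes were higher in KCs. Of 15 genes of the pathway, 5 were higher than in every other tissue (33.3% against 3.47% of all genes tested), and none was lower. The 5 were the chain genes H2-Aa, H2-Ab1 and H2-Eb1, the invariant chain Cd74 and the transactivator Ciita. H2-Aa stood at 4770, 2110 and 2670 CPM in KCs, at 420, 311 and 302 CPM in AMs and at 64.6, 174 and 190 CPM in PMs, a ratio of 9.25 to AMs (log2 fold change 3.21 ± 0.45, edgeR adjusted p = 0.000158). Cd74 stood at 21700, 9130 and 13000 CPM against 2130, 1540 and 1960 CPM in AMs, a ratio of 7.81 (log2 fold change 2.96 ± 0.41). KC replicate 1 was the highest library for all 5 genes, most of all for Ciita, at 313 CPM against 65.3 and 73.1 CPM. Markers of dendritic cells, which also carry MHC class II, were highest in the same library, as given below, and their part in this result was not tested. All 5 genes were still called without KC replicate 1, where the smallest log2 fold change was 2.91 for Ciita, against 4.04 with it, and 3.4 for H2-Eb1, against 4.03. The costimulatory genes Cd80, Cd86 and Cd40 were not higher than in every other tissue. Of 18 MHC class I genes, Tap1, a peptide transporter, and Nlrc5, the class I transactivator, were higher (11.1% against 3.47% of all genes tested). The call of Tap1 was lost without KC replicate 1. The chain gene H2-K1 overlapped with PMs, and H2-D1 lay below them.

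**Figure D3:**
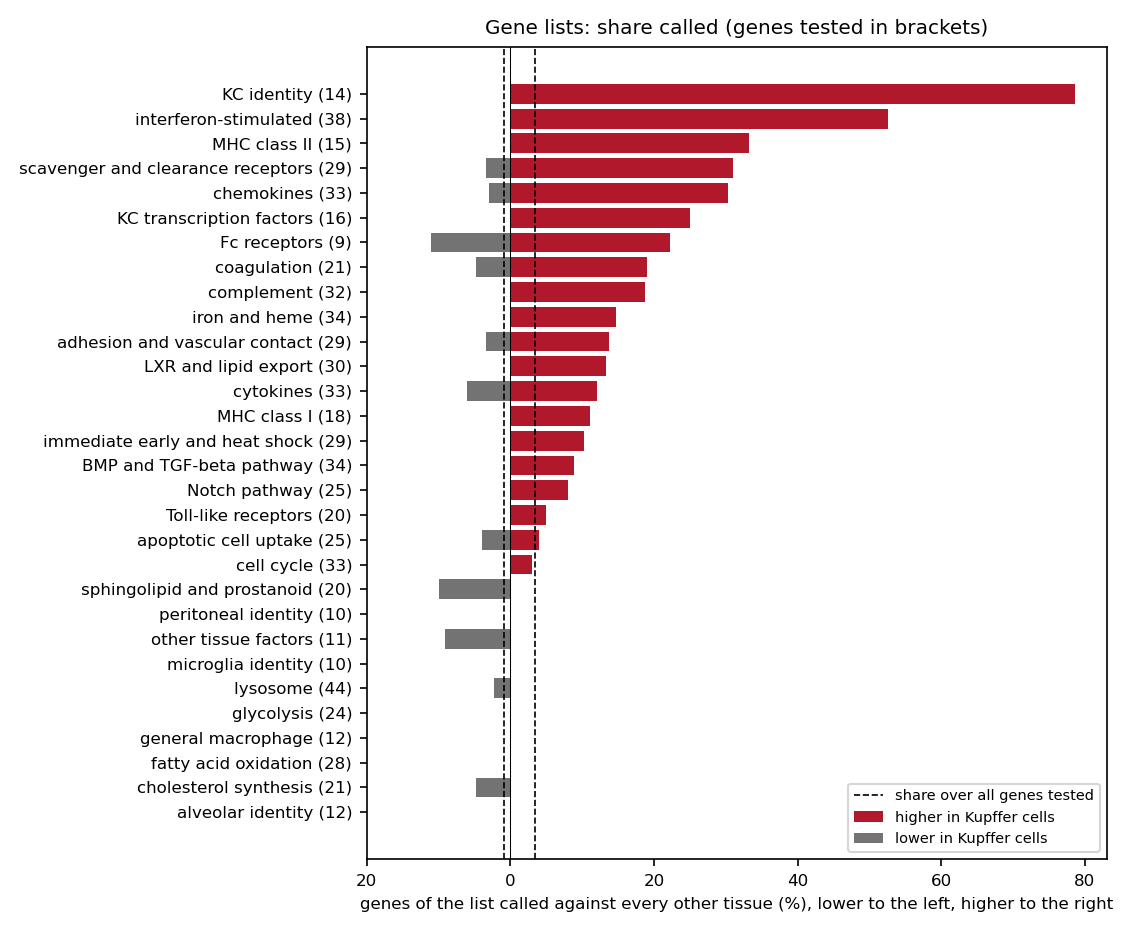
Share of the tested genes of each of 30 pathway and identity lists that were called against every other tissue, higher to the right in red and lower to the left in grey, with the number tested in brackets. The dashed lines mark the share over all genes tested, 3.47% higher and 0.903% lower. Among these pathway and identity lists, KC identity, interferon and MHC class II have the highest shares of higher genes; lists of markers of other cell types are not drawn here.

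Of 33 chemokines and their receptors, 10 were higher and 1 was lower (30.3% and 3.03%, against 3.47% and 0.903% of all genes tested). Cxcl16, given above, was even between the KC libraries. Several others were highest in replicate 1: Cxcl9, a ligand for T cells, stood at 177, 19.7 and 34.2 CPM, Ccl5 at 111, 11.9 and 12.8 CPM, Ccr7 at 73.8, 7.51 and 10.8 CPM and Cxcr3 at 108, 20.6 and 20.1 CPM. Ccl17 stood at 82.5, 7.73 and 1.41 CPM, overlapped with AMs and lost its call under 13 of 23 alternatives, among them limma-voom and leaving out replicate 1 or any MG or AM library. Without replicate 1, 9 of the list were called, and the smallest log2 fold change fell from 5.26 to 3.75 for Cxcl9, from 4.14 to 2.26 for Ccl5, from 6.75 to 4.95 for Ccr7 and from 4.21 to 2.86 for Cxcr3. T cell and dendritic cell markers were highest in the same library, and their part was not tested. The lower member was Ccl9, at 42.1, 15 and 19.7 CPM against 109, 122 and 98.9 CPM in AMs. Of 33 cytokines and receptors, 4 were higher (12.1% against 3.47% of all genes tested) and 2 lower (6.06% against 0.903%). Il18bp, the decoy that neutralises IL-18, stood at 798, 995 and 1250 CPM in KCs and at 33.1, 42.7 and 35.5 CPM in PMs (log2 fold change 4.77 ± 0.27, edgeR adjusted p = 3.27e-07). Il10 was low, at 5.31, 6.83 and 8.46 CPM, and did not exceed 0.775 CPM elsewhere. Il1r1 and Tnfsf13b were the lower members, each below 3 CPM in every KC library.

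Genes of contact with the vessel wall were present in the sorted KCs. Of 29 adhesion genes, 4 were higher and 1 lower (13.8% and 3.45%, against 3.47% and 0.903% of all genes tested). Cdh5, the cadherin of endothelial junctions, stood at 153, 247 and 350 CPM in KCs, at 1.67, 0.688 and 0.981 CPM in MG and had no read in PMs or AMs. Vcam1, a ligand of leukocyte integrins, stood at 316, 876 and 1040 CPM against 7.14, 8 and 6.21 CPM in MG (log2 fold change 6.71 ± 0.60, edgeR adjusted p = 4.78e-06). Both genes are also carried by endothelium. The 16 markers of sinusoidal endothelium, which include Cdh5, Stab2 and Pecam1, summed to 609, 814 and 954 CPM in KCs. They did not move together between replicates: Cdh5, Stab2, Pecam1 and Bmp2 were lowest in replicate 1, whereas Lyve1 stood at 47.9, 6.44 and 1.75 CPM, Kdr at 21.2, 3.52 and 0.094 CPM and Clec4g at 16, 3.88 and 0.376 CPM. Tie1 had no read in any KC library. The part of endothelial RNA in the levels of Cdh5, Vcam1 and Stab2 was not tested. Pecam1 and Itga9 were the other 2 higher genes, and the model of all 24 libraries called neither. Pecam1, at 41.5, 156 and 176 CPM, overlapped with MG, and its call was lost under 13 alternatives. Itga6, an integrin chain for laminin, was lower, at 13.5, 3.49 and 2.22 CPM against 33.5, 34.5 and 33.6 CPM in AMs and means of 489 CPM in MG and 1660 CPM in PMs. Its log2 fold change against AMs was -2.41, and without KC replicate 1 the smallest was -3.56.

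In signalling pathways that pattern KCs, few members stood out. Of 25 Notch genes, 2 were higher, the target genes Hes1 and Hey1 (8% against 3.47% of all genes tested). Hes1 stood at 83.2, 96.8 and 99.8 CPM against 18.5, 20.1 and 16.3 CPM in PMs (log2 fold change 2.35 ± 0.31), and the call was lost in the model of all 24 libraries. Hey1 stood at 7.23, 11.8 and 7.55 CPM and did not exceed 1.01 CPM elsewhere. Of 34 genes of BMP and TGF-beta signalling, Id3, the inhibitory Smad6 and Smad9 were higher (8.82% against 3.47% of all genes tested). Smad6 stood at 31, 51.1 and 40.5 CPM against 6.51, 7.11 and 9.08 CPM in MG (log2 fold change 2.43 ± 0.29, edgeR adjusted p = 4.69e-05). Smad9 was low, at 2.13, 0.703 and 1.16 CPM with no read elsewhere. Of 20 Toll-like receptor genes 1 was higher, Tlr11 (5%, near the 3.47% of all genes tested). Tlr11, which senses profilin, stood at 102, 31.3 and 32.5 CPM with a highest value of 1.13 CPM elsewhere. Without KC replicate 1 its smallest log2 fold change was 4.92, against 5.78 with it. Its partner Tlr12 stood at 171, 133 and 198 CPM with an MG mean of 76.2 CPM, and all KC libraries lay above all others.

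The other named higher genes were those with the largest smallest fold change at a mean of at least 32 CPM. Adamdec1, a secreted protease, stood at 58.5, 215 and 220 CPM and Sectm1a at 33.1, 55.3 and 56 CPM, with no read in any of the other 9 libraries. At a floor of 3 reads over a group, Adamdec1 was at least 5190-fold higher and Sectm1a at least 1510-fold higher. Paqr9, a membrane receptor of the progestin and adipoQ family, stood at 111, 231 and 274 CPM and Kcna2, a potassium channel, at 155, 252 and 263 CPM, both below 0.1 CPM in all other libraries. Hic1, a transcriptional repressor, was even between replicates, at 74.9, 63.8 and 71.9 CPM, and did not exceed 0.226 CPM elsewhere. Tspan15, Pcolce2, Slc1a2, Cd207 and Stab2 belonged to the same group, with Cd207, the lectin langerin, at 232, 381 and 483 CPM. Dmpk, a kinase known from muscle, stood at 1410, 2010 and 1690 CPM against 168, 129 and 157 CPM in PMs (log2 fold change 3.49 ± 0.22).

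The genes lower than in every other tissue included 2 of leukotriene synthesis. Of 20 genes of sphingolipid and prostanoid metabolism none was higher and 2 were lower, Alox5 and Ltc4s (10% against 0.903% of all genes tested). Alox5, the 5-lipoxygenase that opens leukotriene synthesis, stood at 0.75, 9.11 and 18.9 CPM in KCs and at 85, 92.1 and 92.7 CPM in MG, 584, 688 and 572 CPM in PMs and 692, 648 and 735 CPM in AMs. Ltc4s, which makes leukotriene C4, stood at 26.5, 22.8 and 28 CPM in KCs, at 139, 150 and 141 CPM in MG, at 411, 424 and 436 CPM in PMs and at 156, 157 and 172 CPM in AMs. For both genes every KC library lay below every other library. The log2 fold change against MG was -3.23 ± 0.71 for Alox5 (edgeR adjusted p = 0.00355) and -2.48 ± 0.12 for Ltc4s (edgeR adjusted p = 4.21e-08). The other members of the pathway were not lower in the same way: Alox5ap and the prostanoid gene Ptgs1 overlapped with MG, and Lta4h lay above MG and overlapped with PMs.

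Cd9, a tetraspanin, stood at 89.8, 96 and 26.5 CPM in KCs against 744, 792 and 822 CPM in MG, the nearest population, a ratio of 11.1. Sort1, a sorting receptor of the trans-Golgi, stood at 4.05, 19.4 and 12.5 CPM against 79.6, 125 and 108 CPM in PMs (log2 fold change -3.12 ± 0.43). Pros1, protein S, which bridges apoptotic cells to receptors of the TAM family and inhibits coagulation, stood at 51, 203 and 201 CPM against 643, 562 and 644 CPM in AMs, a ratio of 4.05 (log2 fold change -2.02 ± 0.40). None of these groups overlapped. Clec5a, Pde3b, Ugt1a7c, Adam15, Calcrl and the gene AI467606 were the rest of the lower genes with the largest smallest fold change at the same minimum level. Cd63 of 44 lysosome genes and Hsd17b7 of 21 genes of cholesterol synthesis were also lower (2.27% and 4.76%, against 0.903% of all genes tested). The call of Cd63 was lost without KC replicate 3 and without PM replicate 3, and that of Hsd17b7 under 4 of 23 alternatives, among them without KC replicate 1 and without MG replicate 1. Htra3 and Hspa12a had no read in any KC library, while Htra3 stood at 14.2 to 17 CPM in MG, 211 to 228 CPM in PMs and 27.7 to 38.4 CPM in AMs.

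**Figure D4:**
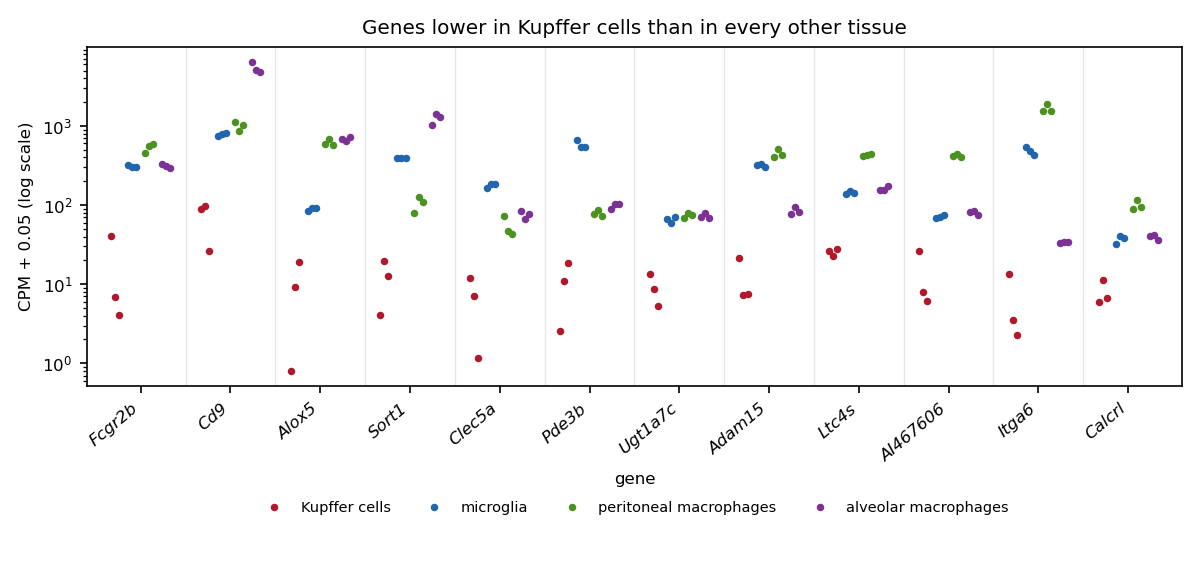
Levels of the 12 named genes that were lower in KCs than in every other tissue, in CPM + 0.05 on a log axis. Each point is 1 library, in the order of replicates, coloured by population. The KC points lie below all others for each gene and spread more widely, as for Alox5 from 0.75 to 18.9 CPM.

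The genes that separated KCs most from 1 population were named as well. Against MG, Siglech, Slc2a5 and Sall1 were lower: Siglech stood at 2030, 1920 and 1970 CPM in MG with no read in KCs, and Slc2a5, a fructose transporter, at 1050, 1080 and 1020 CPM in MG. Against PMs, Ltbp1, Htra3 and Selp were lower, and Ltbp1, a latent TGF-beta binding protein, stood at 1860, 2380 and 1840 CPM in PMs while Selp, P-selectin, stood at 1440, 1600 and 1310 CPM. Against AMs, Hspa12a, Tc2n and Sema3e were lower, with Hspa12a at 97.8, 122 and 113 CPM in AMs. The higher genes in these comparisons were those already described: Cd163 and Vsig4 against MG, Clec4f, Cd207 and Stab2 against PMs, and Clec4f and C6 against AMs. Timd4 also ranked among the first 3 against MG and against AMs, as a gene of the sorting gate.

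In several lists of basic programmes, few or no genes were called against every other tissue. Of 24 glycolysis genes, 28 genes of fatty acid oxidation and 12 general macrophage genes, none was called against every other tissue in either direction. Over all genes tested, 3.47% were higher and 0.903% lower. In lists of this size no call is near those shares, so it is not a result about these genes. Of 33 cell cycle genes, 27 were higher than in MG and 22 higher than in PMs, where 14.5% and 11.3% of all genes tested were. Only 1 was higher than in AMs, where 16.8% of all genes tested were. This was Tk1, a thymidine kinase at 110, 96.3 and 73.4 CPM in KCs. Its call was lost without KC replicate 1 and in the model of all 24 libraries. For 6 of the 33, KC replicate 1 exceeded 3 times both other KC libraries, where 8.9% of all genes tested did. Mki67, which marks cycling cells, stood at 167, 31.9 and 66.2 CPM, with means of 1.35 CPM in MG, 11.8 CPM in PMs and 46.1 CPM in AMs. Of 29 immediate early and heat shock genes, which enzymatic dissociation is known to induce, 3 were higher than in every other tissue. They were Dusp2, Hspa1a and Hspa1b (10.3% against 3.47% of all genes tested). Fos and Jun were not higher: Jun stood at 250, 248 and 162 CPM in KCs against a mean of 2510 CPM in MG. Of 21 coagulation genes, Procr, F2rl2, Plg and Proc were higher (19%) and Pros1 lower (4.76%). Of 25 genes of apoptotic cell uptake, Stab2 was higher and Pros1 lower (4% each). Over all genes tested these shares were 3.47% higher, near that of apoptotic cell uptake, and 0.903% lower.

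Markers of other liver cells were found in the KC libraries at low to moderate levels, and 39 of the 546 higher genes were in a list of markers of other cell types. Hepatocyte markers summed to 329, 162 and 167 CPM in KCs, and 10 of 13 were higher than in every other tissue, where 3.47% of all genes tested were. Alb, albumin, stood at 143, 44.7 and 78.5 CPM. The sum in AMs, 512 to 576 CPM, was mostly Fabp1. Genes of the coagulation, complement and iron lists that hepatocytes make, such as Plg, Proc, Cfi, Vtn and Hpx, were also called higher. The part of hepatocyte RNA in those calls was not tested. Markers of T and NK cells summed to 605, 78.3 and 76.5 CPM, against at most 13.7 CPM in any other library, and 9 of 14 were higher, 6 without KC replicate 1. Markers of dendritic cells summed to 1160, 192 and 211 CPM, with 7 of 12 higher, 6 without KC replicate 1: Xcr1, of cross-presenting dendritic cells, stood at 228, 19.9 and 29.6 CPM and Flt3 at 219, 22.6 and 31.9 CPM. The higher sum in MG, 1960 to 2070 CPM, was mostly Siglech, which had no read in KCs. Replicate 1 was thus the library with the most RNA of lymphocyte and dendritic cell markers, although the same TIM-4 gate was applied to all 3 KC sorts. B cell markers summed to 533, 249 and 398 CPM, monocyte markers to 1040, 980 and 1030 CPM and neutrophil markers to 323, 326 and 201 CPM, with 4 of 12, 3 of 12 and none of 5 genes higher. Sinusoidal endothelial markers summed to 609, 814 and 954 CPM, with 4 of 13 higher, namely Stab2, Dpp4, Pecam1 and Cdh5. Stellate cell markers summed to 219 to 243 CPM, erythroid markers to 26.9 to 61.2 CPM and platelet markers to 19.5 to 42.8 CPM, with 1, 1 and none called higher. The stellate cell sum was mostly Ecm1, at 208, 189 and 192 CPM in KCs and 6160, 5970 and 5770 CPM in PMs. The platelet sum was mostly Pf4, at 42, 28.7 and 17.1 CPM in KCs and 4340, 3300 and 3110 CPM in PMs. The platelet genes Gp9, Gp1ba and Treml1 had no read in any KC library. The shares called higher were 64.3% for T and NK cells, 58.3% for dendritic cells and 33.3% for B cells. They were 30.8% for sinusoidal endothelium, 25% for monocytes, 20% for erythroid cells and 16.7% for stellate cells. Over all genes tested the share was 3.47%, and none of 5 neutrophil genes or 5 platelet genes is near it. The part of these cells in the calls outside their own lists was not tested.

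**Figure D5:**
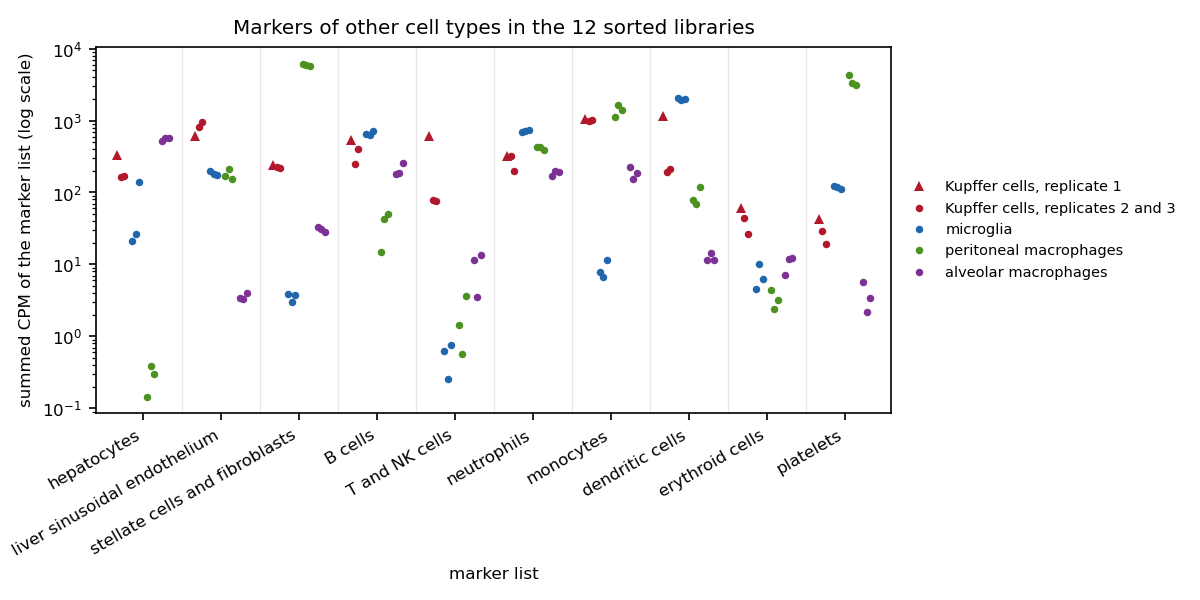
Summed CPM of marker genes of 10 other cell types in each of the 12 libraries, on a log axis. Triangles are KC replicate 1, which has the highest sum of T and NK cell markers (605 CPM against 78.3 and 76.5 CPM) and, among KCs, of dendritic cell markers.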

How the data were processed

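RNA of sorted macrophages was amplified with SMARTer chemistry, tagmented with Nextera XT and sequenced as single reads. The submitters' processing notes name Trimmomatic 0.36, STAR 2.5.2b and the build hg19, whereas the study's methods describe alignment to the mouse genome, and the identifiers in the file are mouse Ensembl genes. The strand setting of the counting is not given in the sources used here. The deposited values are raw counts per gene, which the authors did not normalize. A symbol was found for 45143 of 45706 identifiers in the GENCODE annotation of GRCm38, and genes without one were counted but not named.

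The 12 sorted libraries (29569486 to 40277178 reads) were fitted in edgeR 4.0.16 (R 4.3.3) with TMM scaling, 1 factor of 4 populations and the quasi-likelihood test, after filterByExpr with a minimum count of 10, which kept 15732 genes. The study used limma-voom, which was run as an alternative (limma 3.58.1), and an adjusted p of 0.05 with a fold change threshold given as 1.5 in 1 place and as 1.5 on the log2 scale in another; the second was used here and the first was an alternative, as were DESeq2 1.42.0, other filters, a replicate block, all 24 libraries and leaving out each library. A fold against groups without reads was set against a floor of 3 reads over the group.

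On counts simulated for the 15732 genes with KCs against every other tissue, 50% of genes raised by 2 on the log2 scale and 70% of those raised by 4 were called, and 52% and 66% of those lowered by 2 and 4. None of 15532 unchanged genes was called. The simulation gave all 4 populations the same spread for a gene and, before any change, the same mean. In the data the biological coefficient of variation was 0.745 in KCs and 0.138 to 0.291 in the other populations. The simulated rates therefore do not describe the calls at that unequal spread.

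The comparison, its gene lists and the naming rule were chosen with earlier results of these data known. Named were Clec4f, C6 and Cd5l, members of the lists, the 12 higher and 12 lower genes with the largest smallest fold change without overlap at a mean of at least 32 CPM, and the 3 most changed in each direction against each population. Promoter sequences are from RefSeq (GRCm38.p6), where 10925 of the tested genes had a window of 250 bases before the start. Some genes of the lists are not reported here by name.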

Additional observations from a re-analysis of the deposited data

How the results depend on the processing

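All 163 named calls kept their direction under every alternative, 126 kept their call under each, and 37 lost it under at least 1; the model of all 24 libraries lost the most, 27. DESeq2 gave no adjusted p for 7 of them and lost 1 of the other 156. Counts past the thresholds moved by over 1.5 times as follows. Under limma-voom, 1135 genes were lower than the mean of the others. With the threshold at a fold change of 1.5 instead of a log2 fold change of 1.5, 3616 genes were higher and 2568 lower than in MG, 2892 higher and 2251 lower than in PMs, 2681 lower than in AMs, 1506 lower than the mean, and 847 higher and 305 lower than in every other tissue. With no fold threshold these were 3888 and 2755 against MG, 3146 and 2482 against PMs, 3032 lower than in AMs, 3787 higher and 1949 lower than the mean, and 919 higher and 384 lower than in every other tissue. With 6 libraries per comparison, 56 genes were lower than in every other tissue. With 1 variance per population, chosen after seeing the data, 327 were lower than the mean and 73 lower than in every other tissue, 61 of them shared with the 142. Leaving out 1 library at a time gave 1887 to 2628 genes higher and 1341 to 1870 lower than in MG, 1450 to 2049 higher and 956 to 1590 lower than in PMs, 2210 to 2953 higher and 1128 to 1495 lower than in AMs, 2082 to 2672 higher and 506 to 810 lower than the mean, and 470 to 661 higher and 126 to 232 lower than in every other tissue. The extra lower calls without KC replicate 1 (222, of which 119 shared) or 2 (232, of which 114 shared) had a cause that was not tested. At an unadjusted p under 0.05 in all 3 comparisons, 1175 genes were higher and 574 lower.

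The populations share replicate numbers, but the deviations of same-numbered libraries correlated at -0.065 to 0.0443 over 18 pairs, none above 0.1, so the numbers were not taken to pair the samples. With a replicate block, 464 genes were higher and 122 lower than in every other tissue, and 158 of the 163 named calls were kept. No count moved by over 1.5 times with the block. Depth set a floor of 0.0695 to 0.11 CPM (3 reads) in a library, and the biological coefficient of variation of the KC libraries was 0.745.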
